A study of Drosophila melanogaster with 19 samples.

Results

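Adult female flies overexpressing Pdm2-RB were compared with driver-only controls in the part of the body that remains once gut and head have been taken off. The comparison rested on 6 of the 19 arrays of the series, 3 from Pdm2RB rest and 3 from w1118 rest, where "rest" is the authors' word for this gutless and headless body. Pdm2RB flies are described as w; c564-Gal4>UAS-Pdm2RB, and the control flies, called w1118, carry c564-Gal4 over a wild-type chromosome with no UAS target. The sample labels of the controls spell the driver c546-Gal4, while the series text and the study's methods have c564-Gal4. Both groups therefore carry the same Gal4 driver, which is active in immune tissues such as fat body and midgut and not only there. All flies were females aged 10 days and labelled with 25 °C, and each sample was RNA from an independent pool of dissected flies. For the nub-RB flies and controls, the study's methods give 25 °C for the adults, after raising at a lower temperature. The samples compared were replicates 1, 2 and 4 of Pdm2RB rest and replicates 1, 3 and 4 of w1118 rest. The labels write the background of the overexpressing line as w and that of the control as w1118, and no control carried the UAS element without the driver, so an effect of Pdm2-RB and a difference in background between the lines cannot be told apart.

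Pdm2 and its neighbouring paralog Nubbin are POU-domain transcription factors, the family of the mammalian Oct proteins, which bind octamer-like DNA and are best known in flies for their parts in neuroblast and wing development. The fat body is the main source of the antimicrobial peptides that are released into the haemolymph. There the Imd and Toll pathways switch on peptide genes through NF-κB factors, diptericins, attacins and cecropins being typical Imd targets, and drosomycin and the bomanins typical Toll targets.

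RNA was hybridised to 1-colour Agilent arrays, and the signal given below is the quantile-normalized brightness of a probe in arbitrary units, so levels are compared between arrays for the same probe and never between probes. On the 6 arrays, 71.6 to 83.5% of the probes were well above background. The median background-subtracted signal of a probe before normalization ran from 56.3 to 245, and no spot was saturated. The number of arrays limits the precision. The overexpressed gene could not be followed by name, since none of the probes with a symbol belonged to pdm2. The paralog nub was dim in rest, with signals of 68.2, 60.0 and 97.3 in Pdm2RB and 74.0, 54.6 and 127 in w1118, below the threshold of 130 that a group mean had to pass, and was not tested. A probe without a symbol, A_09_P143788, read 37803, 32020 and 36120 in Pdm2RB rest and 6.22, 9.70 and 9.18 in w1118 rest. In Pdm2RB gut it read 17371, 16134 and 14162, whereas on the 13 arrays of the other genotypes, nubRB included, it lay between 4.97 and 10.2. Markers of the removed or absent tissues were read next. Of 20 testis and male accessory gland genes, 5 were found by name and none reached the threshold, with signals from 1.56 to 27.2. Photoreceptor genes were not absent, since Arr1 lay between 1165 and 8299 on the 6 arrays, with overlapping groups.

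Of 32162 probes, 16454 had a mean signal above the threshold in Pdm2RB rest, w1118 rest or both, and 142 of these (0.863%) differed between Pdm2RB rest and w1118 rest by limma's moderated test (two-sided, n = 3 and 3) at a Benjamini-Hochberg adjusted p under 0.01. Pdm2RB rest was higher for 84 probes (0.511%) and lower for 58 (0.352%). At 5% the number was 486 (2.95%). Without Pdm2RB replicate 2, w1118 replicate 1 or w1118 replicate 4 the number called at 1% was 44, 57 and 52. The median log2 difference of the probes called higher was 2.92, that of the probes called lower was -1.98, and that of all probes tested was 0.03. The 3 arrays of one group lay outside the range of the other for every probe called, against 23.4% of all probes tested. The test picked these probes on the same values, so this is not separate support. A gene symbol was at hand for 59 of the called probes, standing for 45 genes. Symbols came in part from tables that the authors ranked by their nubRB comparison, which used the same w1118 rest arrays, and this colours what can be named. Of the 779 tested probes with a symbol 6.16% were called higher and 1.41% lower, against 0.230% and 0.30% of the 15675 without one. Counts of named genes and of gene lists below carry that imbalance and are not independent evidence of a direction.

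The differences with the highest folds were changes between a dim probe and a bright one. Oat, which encodes ornithine aminotransferase, the enzyme that links ornithine to glutamate and proline, read 10734, 18517 and 18138 in Pdm2RB rest and 4.6, 2.20 and 5.26 in w1118 rest. All Pdm2RB arrays were bright and all control arrays near background, with only 1 control array well above it. The fitted log2 difference was 11.99 ± 0.38 (SE, n = 3 and 3, adjusted p = 5.82e-05), a size that rests in part on control signals not well above background. The other Oat probe had a log2 difference of 1.15 and did not pass the test, so the size of the Oat change depended on the probe. nur read 78938, 53951 and 131310 in Pdm2RB rest and 40.0, 45.9 and 53.5 in w1118 rest, a log2 difference of 10.80 ± 0.32 (adjusted p = 5.65e-05). CG13159 read 6742, 5404 and 7187 against 21.2, 18.7 and 22.3, which is 8.27 ± 0.15 on the log2 scale (adjusted p = 4.01e-06). For CG14852 the Pdm2RB arrays read 4354, 7260 and 3279 and the control arrays 13.7, 11.1 and 9.35, a log2 difference of 8.71 ± 0.31 (adjusted p = 7.95e-05). In each of these genes the lowest Pdm2RB array was far above the highest control array.

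**Figure D1:**
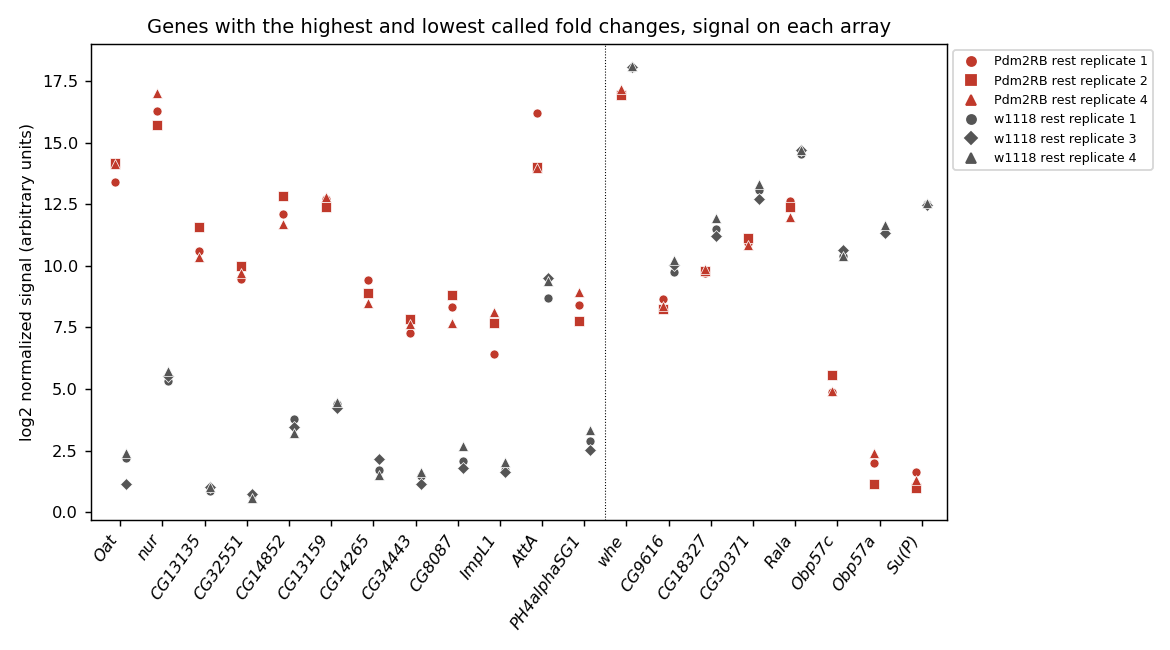
Log2 normalized signal (y axis, arbitrary units) of the 12 named genes with the highest called fold change and the 8 called lower, on each of the 3 Pdm2RB rest and 3 w1118 rest arrays; each point is 1 array and the dotted line parts higher from lower genes. The groups do not overlap for any gene, and Oat goes from 2.20 to 5.26 units in w1118 rest to at least 10734 in Pdm2RB rest while Su(P) goes the other way.

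For 9 of the called probes no w1118 rest array was well above background, so that only a lower limit of the change can be given: the bright group's mean against the lowest signal that counted as well above background. CG13135 read 1571, 3088 and 1301 in Pdm2RB rest and 1.81 to 2.05 in w1118 rest, at least 247-fold higher (adjusted p = 5.82e-05), and its other probe was called as well. CG32551 read 699, 1029 and 841 against 1.49 to 1.67, at least 113-fold higher (adjusted p = 4.01e-06). CG14265 was at least 65.5-fold higher, with Pdm2RB signals of 693, 472 and 362. These genes carry only their annotation numbers, and no role is given for them here. CG8087 was at least 36.2-fold higher and CG34443 at least 25.6-fold. ImpL1, first described as an ecdysone-inducible gene, read 85.4, 206 and 281 against 3.08 to 4.16, at least 22.7-fold higher (adjusted p = 0.00224). PH4alphaSG1, a prolyl 4-hydroxylase subunit of the kind that modifies collagen, read 341, 216 and 493 against 7.43, 5.80 and 10.0 (log2 difference 5.45 ± 0.34, adjusted p = 0.000945).

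Smaller increases could be as even between arrays. The genes of this paragraph other than wnd and yellow-d, and IM10 further on, were picked from the called genes after their values were seen. The gene wnd, the Wallenda kinase that acts upstream of JNK signalling, read 2315, 2300 and 2447 in Pdm2RB rest and 255, 250 and 261 in w1118 rest, a log2 difference of 3.20 ± 0.10 (adjusted p = 5.65e-05). Of the other 3 tested genes of the JNK and stress list, p38c, Mmp1 and puc, none passed the test, and puc, a JNK target and phosphatase, differed by -0.05 ± 0.12. Sid, a stress-induced DNase, rose from 110, 123 and 143 to 872, 954 and 1414 (log2 difference 3.08 ± 0.21, adjusted p = 0.00148). Arc1, which encodes a Gag-like protein that forms capsids, rose from 42720, 41165 and 32177 to 117960, 114360 and 143720 (1.70 ± 0.16, adjusted p = 0.0053). yellow-d, of the Yellow protein family, rose from 3197, 2419 and 3810 to 20704, 24849 and 34025 (3.07 ± 0.24, adjusted p = 0.00254). CheA75a, of the CheA family named for chemosensory tissue, rose from 445, 486 and 420 to 1758, 2681 and 2219 (2.28 ± 0.18, adjusted p = 0.00224). The groups lay apart in all of these genes. Arc1, IM10, CG30154 and CG14963, which rose, and CG9616, which fell, were called in none of the 6 fits that left out an array. CG14642, CG9689, CG18327, CG30371 and whe were called in 1 of 6, as was AttA, given below.

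Fewer genes with a symbol fell. Su(P) read 3.08, 2.0 and 2.51 in Pdm2RB rest and 5842, 5634 and 6065 in w1118 rest, at least 929-fold lower (adjusted p = 3.83e-06), and was not well above background on any Pdm2RB array. Obp57a, which encodes an odorant-binding protein, a small secreted carrier of hydrophobic ligands, read 4.01, 2.23 and 5.23 against 2593, 2554 and 3244, at least 434-fold lower (adjusted p = 5.82e-05). Its neighbour Obp57c read 29.7, 48.0 and 30.7 against 1354, 1585 and 1360, and the log2 difference was -5.34 ± 0.21 (adjusted p = 0.000109). Of the 4 tested genes of the odorant-binding protein list these 2 fell, beside 0.352% of all probes, whereas Obp99b was at 2.46 ± 0.34 (adjusted p = 0.02) and Obp99d at 0.08 ± 0.29. Obp46a, which was not on the list, was at 3.37 ± 1.56 and not called. Rala, a Ras-like small GTPase, read 6416, 5349 and 4021 against 23761, 26839 and 26570 on its brightest probe (-2.31 ± 0.19, adjusted p = 0.00277), but its 3 called probes ran from -2.31 to 1.39, so the direction for Rala depended on the probe. CG30371 fell by 2.08 on the log2 scale, CG18327 by 1.76 and CG9616 by 1.59. The signal of whe, 123780, 125630 and 149310 against 269900, 273840 and 285760, fell by 1.06 on the log2 scale (adjusted p = 0.00965), though with slide as a fixed block over all groups its sign turned. After these came 4 named probes that did not pass: CG5773 at -3.16 ± 0.42 (adjusted p = 0.0171), lncRNA:CR33942 at -1.04, asRNA:CR43463 at -0.89 and the midgut protease gene Jon65Aiii at -6.84. Among probes without a symbol, whose values chose them, A_09_P006821 rose from 2.26, 4.11 and 8.48 to 60119, 48534 and 74741, and A_09_P033716 fell from 837, 971 and 645 to 4.48, 7.80 and 8.13 with A_09_P122225 at -6.04.

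Some of the called genes were neighbours in the order of genes on the chromosome, taken from RefSeq's Release 6 annotation. CG16704 and CG3513 lay side by side, with 3 genes between CG3513 and CG16713, and all of the named ones rose. CG16704 and CG16713 encode small Kunitz-type protease inhibitors. CG3513 rose from 133.8, 192 and 141 to 1992, 3887 and 6302 (4.57 ± 0.42, adjusted p = 0.00432), CG16713 from 1256, 1914 and 1615 to 15600, 13393 and 11652 (3.1 ± 0.19, adjusted p = 0.000945) and CG16704 from 3351, 4588 and 4107 to 25895, 26419 and 20627 (2.60 ± 0.17, adjusted p = 0.00105). The other CG16713 probe, at 1.34, was not called. CG8087 and CG14852 were also side by side. Oat and wnd had 1 gene between them, as had Obp57c and Obp57a. whe and CG10918, with 2 genes between them, differed in opposite directions, at -1.06 and 4.28.

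For most antimicrobial peptide genes the 3 Pdm2RB arrays lay above the 3 control arrays, by unequal amounts, and 1 gene passed the 1% test. Of 14 genes on the list 13 were found and 12 tested, all 12 had a log2 difference above 0, and for 11 the groups did not overlap, against 13.7% of all probes tested that were higher without overlap. The median log2 difference was 5.47, beside 0.03 over all probes. Only AttA, attacin A, passed the 1% test, with 74305, 16412 and 16257 in Pdm2RB rest and 412, 720 and 667 in w1118 rest (5.54 ± 0.62, adjusted p = 0.00965), and at 5% the count was 7, where 1.9% of all probes were higher. AttA was called in 1 of the 6 fits that left out an array. DptA, a diptericin, read 108710, 8535 and 2832 against 34.6, 43.25 and 43.2, a log2 difference of 8.43 ± 1.24 (adjusted p = 0.024). AttC read 171230, 23697 and 8795 against 483, 530 and 472 (6.06 ± 1.01, adjusted p = 0.0366). The cecropin gene CecA1 read 4492, 819 and 204 against 30.1, 79.3 and 66.9 (4.07 ± 1.08, adjusted p = 0.126). Replicate 1 was the highest Pdm2RB array for 11 of the 12 genes and replicate 4 the lowest for all 12. Without Pdm2RB replicate 1, 10 of the genes passed the threshold, 5 of them were called and their median was 4.39, while without any other single array none was called and the median stayed between 5.14 and 6.06. The median difference was 5.75 within the first scan batch, which held Pdm2RB replicates 1 and 2 and w1118 replicate 4. It was 3.81 within the second, which held Pdm2RB replicate 4 and w1118 replicates 1 and 3. Batch and replicate therefore cannot be told apart here. Drs, the antifungal drosomycin, did not share this pattern: the signals were 6259, 19390 and 2902 against 9341, 1063 and 16480, with overlapping groups and a log2 difference of 0.37 ± 1.15 that changed sign under 5 of the alternatives given in the closing section. In the gut, where controls were other arrays, all 12 genes were also above 0 and none was called at 1%.

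**Figure D2:**
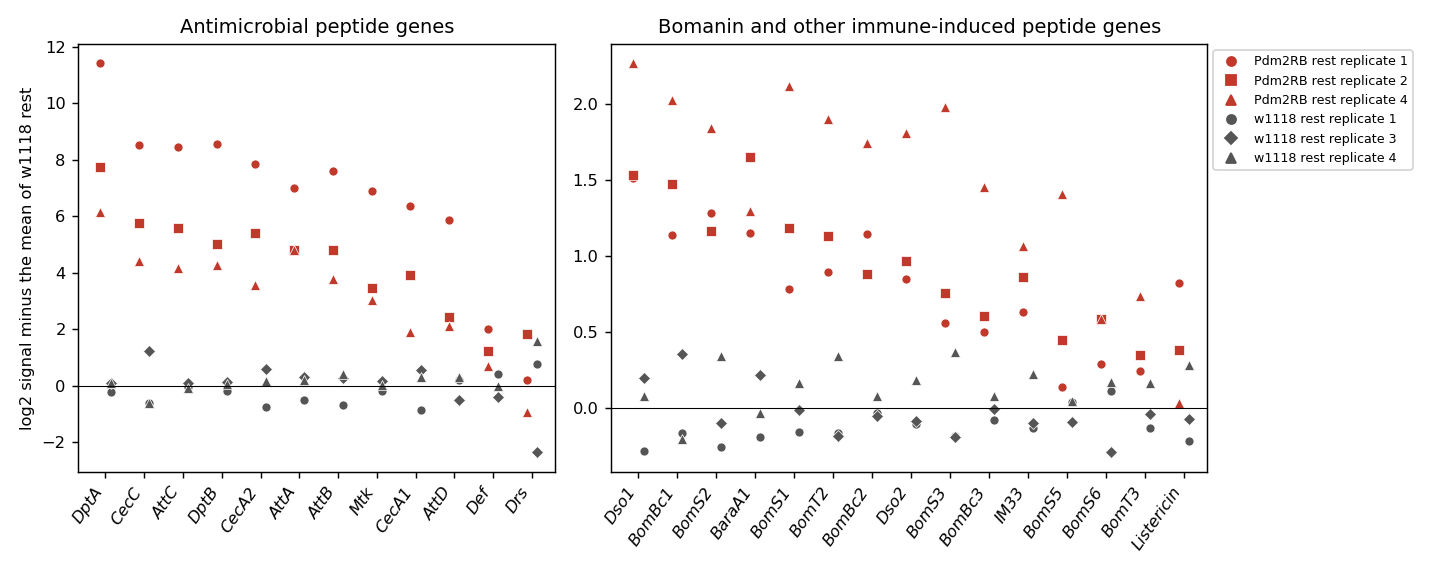
Log2 signal of each array minus the mean of w1118 rest (y axis) for 12 antimicrobial peptide genes (left) and 15 bomanin and related genes (right), on different scales; each point is 1 array. On the left Pdm2RB replicate 1 is highest for 11 of 12 genes and Drs overlaps, whereas on the right replicate 4 is highest for 13 of 15.

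The bomanins and other immune-induced peptides, most of them Toll targets, also lay above the controls for nearly all genes, with another order of the Pdm2RB arrays. All 15 tested genes of this list were above 0 with a median of 1.21, 14 without overlap, none passed at 1% and 5 at 5%. Over all probes 13.7% were higher without overlap and 1.9% higher at 5%. Dso1, a daisho peptide, read 72360, 73256 and 121890 against 20809, 29124 and 26737 (1.77 ± 0.25, adjusted p = 0.0202), BomBc1 read 695, 879 and 1287 against 283, 405 and 275 (1.55 ± 0.27, adjusted p = 0.0414), and BomS2 read 61943, 56903 and 90972 against 21261, 23785 and 32289 (1.43 ± 0.24, adjusted p = 0.0368). Replicate 4, the lowest array for the peptides above, was the highest for 13 of these 15 genes. IM10, an immune-induced peptide, was tested under a symbol that the list does not hold, while the list's BaraA2 was not found by name. The list counts above therefore leave IM10 out. IM10 rose from 1150, 1724 and 1714 to 4808, 5690 and 6284 (1.89 ± 0.20, adjusted p = 0.00821) and was called at 1%. BaraA1, a close copy of the gene for the IM10 peptide whose signal a probe may not part from it, read 482, 683 and 534 against 191, 252 and 212 (1.37 ± 0.18, adjusted p = 0.0165). Drosomycin-like Drsl5 was at 1.65 ± 0.27 (adjusted p = 0.0344).

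None of the tested genes of the recognition, Toll and JAK/STAT lists passed at 1%. In the recognition list 8 genes were tested, 7 were above 0 and 2 passed at 5%, where 1.9% of all probes were higher. PGRP-SD, a secreted peptidoglycan receptor, read 925, 600 and 396 against 124.2, 114 and 100.3 (2.42 ± 0.31, adjusted p = 0.0145). PGRP-SB1 read 14678, 4223 and 2987 against 649, 866 and 437 (3.19 ± 0.61, adjusted p = 0.0525). Both had replicate 1 as the highest Pdm2RB array, as most antimicrobial peptides did. Over the 8 tested genes of the list, however, replicate 1 was highest for 3 and replicate 4 for 4. The gene below 0 was PGRP-SC1b, at -2.52. Of 5 Toll pathway genes spirit, a serine protease upstream of the Toll ligand, was at 1.91 ± 0.27 (adjusted p = 0.0202), and nec, the serpin that restrains the pathway, at 0.49 ± 0.20. None of the 12 Imd pathway genes was found by name. Pvf2, a growth factor of the PDGF and VEGF type, read 189, 225 and 297 against 80.3, 86.7 and 112 (1.34 ± 0.21, adjusted p = 0.0318). Of the cytokine-response genes of the JAK/STAT list, TotC, TotM, TotX and Diedel were tested, all higher without overlap (13.7% of all probes) and none called, with log2 differences from 0.82 to 2.01. The plasma iron carrier Tsf1 read 178930, 111450 and 61127 against 28184, 33876 and 23280 (1.93 ± 0.39, adjusted p = 0.0613).

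Markers of blood cells and of muscle had log2 differences above 0 that did not pass the test. All 9 tested hemocyte genes were above 0, 6 without overlap, none called at 1% or 5%, with a median log2 difference of 0.85, where 13.7% of all probes were higher without overlap. All 5 tested flight and body muscle genes were above 0 as well, 1 without overlap and none called, with a median of 1.29. Hml, hemolectin, read 3129, 4408 and 4150 against 1392, 1992 and 2085 (1.10 ± 0.21, adjusted p = 0.0541), and NimC1, a phagocytosis receptor, 753, 1124 and 1354 against 329, 594 and 565 (1.13 ± 0.31, adjusted p = 0.134). The prophenoloxidases PPO1 and PPO2, made by crystal cells, were at 1.47 ± 0.41 and 1.49 ± 0.41. Replicate 1 was the lowest w1118 array for all 9 hemocyte and all 5 muscle genes, and the summed signal of the hemocyte list ran from 16406 to 31092 in Pdm2RB rest and from 10803 to 15924 in w1118 rest. In tissue pools such as these, more cells of a type and more RNA per cell cannot be told apart. Larval serum protein genes, made by the fat body, were at 3.20 ± 1.46 for Lsp2, 3.15 ± 0.72 for Lsp1beta and 1.75 ± 0.93 for Lsp1gamma, none of them called. Of the ovary and eggshell list yellow-g2 read 3278, 9732 and 20117 against 27667, 33249 and 38309 and exu 248.4, 253 and 196 against 107.5, 185 and 101. The groups lay apart in opposite directions, and neither gene was called.

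Genes of the digestive tract had log2 differences below 0, and the control arrays differed among themselves in how much of them they held. All 25 tested genes of the digestive list had a log2 difference below 0, 17 without overlap, against 9.66% of all probes that were lower without overlap, with a median of -4.72. None passed at 1% and 5 at 5%, where 1.06% of all probes were lower. The trypsin gene alphaTry read 5826, 143 and 116 in Pdm2RB rest and 53473, 29232 and 64358 in w1118 rest (-6.66 ± 1.49, adjusted p = 0.081), and Jon25Biii, a Jonah serine protease, 1493, 118 and 59.4 against 37110, 10262 and 71035 (-7.10 ± 1.30, adjusted p = 0.0479). Without Pdm2RB replicate 1, 10 of them were called, and without w1118 replicate 3, 8. In the gut itself the same 25 genes had a median log2 difference of -0.09 and none was called. A wider measure came from 717 probes at least 32-fold brighter in gut than in rest on the nubRB arrays, which are not part of the comparison. Their median log2 signal was 5.18, 4.54 and 4.19 in Pdm2RB rest and 6.79, 5.09 and 7.45 in w1118 rest, against 13.2 to 13.7 in the gut of these genotypes. They made up 0.0567 to 0.163% of the summed signal in Pdm2RB rest and 0.555 to 1.57% in w1118 rest. Of these probes 356 were tested, 322 lay below 0 and 143 were lower without overlap, with a median of -2.40. Among the 58 probes called lower 1 was gut-enriched, and among the 174 lower at 5% 23 were, beside 356 of all 16454 probes tested. On the nubRB arrays 16 of the 58 were more than 2-fold brighter in gut than in rest, beside 14.3% of all probes tested. CG18327 and CG30371 were among these, by 2.97 and 3.64 on the log2 scale. Obp57a and Obp57c were not, at 0.51 and -1.86, but the nubRB arrays can differ from the controls in this. In w1118, Obp57a read 2554 to 3244 in rest and 35596 to 52103 in gut, and Obp57c 1354 to 1585 and 2990 to 4164. The part of gut RNA in the difference of these 4 genes was not tested. Su(P), Obp57a, Obp57c and the brightest Rala probe fell in the gut as well as in rest. With the gut-enriched probes left out 184 probes were called, 140 of them the same. Only 2 of the 142 calls were gut-enriched, and this step leaves the log2 difference of every other probe as it was. It therefore cannot show how much gut RNA there is in the calls.

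**Figure D3:**
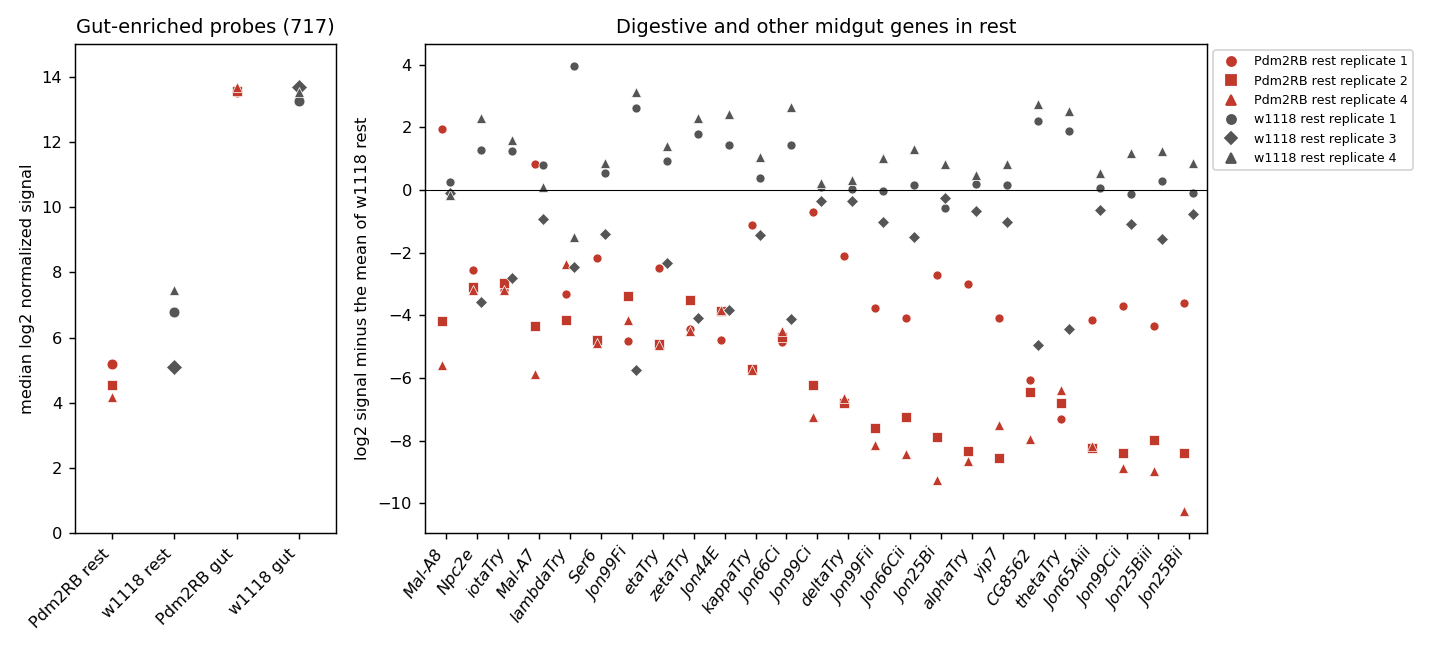
Left, median log2 signal of 717 gut-enriched probes on each Pdm2RB and w1118 array of rest and gut; right, log2 signal of each rest array minus the mean of w1118 rest for 25 digestive and other midgut genes. Pdm2RB rest lies at 4.19 to 5.18 and w1118 rest at 5.09 to 7.45 on the left, and on the right w1118 replicate 3 is the lowest control array for 23 of the 25 genes.

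The gut samples of the same genotypes show which differences were found there too. In the gut 57 of 16566 probes (0.344%) differed at 1%, 26 of them higher (0.157%) and 31 lower (0.187%), and 21 probes were called in both tissues, all in the same direction, which is 14.8% of the calls in rest and 36.8% of those in gut. Of the 106 probes called in rest that were tested in gut, 90 (84.9%) had the same sign there, beside 59.8% of all 15102 probes tested in both. Oat read 7290, 11819 and 1723 in Pdm2RB gut and was not well above background on any w1118 gut array, at least 576-fold higher. Su(P) read 5604, 5010 and 6012 in w1118 gut and 2.92 to 3.96 in Pdm2RB gut, at least 775-fold lower, and Obp57a 35596, 47467 and 52103 against 3.39 to 6.65, at least 6242-fold lower. On the log2 scale Obp57c fell by 7.13 in gut. The brightest Rala probe fell by 2.89 there, and the Rala probe that rose in rest was at 1.06. wnd rose by 2.52 ± 0.19 in gut and CG3513 by 4.07 ± 0.33. For nur and CG13159 the 3 control guts themselves ran from 13.2 to 49921 and from 58.0 to 6111, with replicate 4 highest in each, and no difference in gut was called.

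The difference between tissues was itself tested as an interaction, which was called for 35 of 17918 probes (0.195%), in 25 (0.14%) with the higher and in 10 (0.0558%) with the lower value in rest, and 21 of these were among the 142 called in rest. Without 1 array the number ran from 18 without w1118 rest replicate 1 to 159 without w1118 rest replicate 3. The gene yellow-d, up in rest by 3.07, read 31199, 32587 and 26403 in Pdm2RB gut and 25706, 29015 and 29421 in w1118 gut, and the differences in rest and gut were 2.97 ± 0.30 apart (adjusted p = 0.00199). CG30154 rose in rest, from 347, 468 and 449 to 995, 1191 and 1130, and read 219, 374 and 338 against 766, 846 and 1013 in gut, where its log2 difference of -1.52 had an adjusted p of 0.0469. The interaction of 2.92 ± 0.30 was called (adjusted p = 0.00199). CG8087 and CG14265, called higher in rest, were at 7.22 to 18.5 and 5.82 to 23.3 in Pdm2RB gut, and the interactions of 5.54 ± 0.57 and 5.20 ± 0.66 were called. CG16713 rose by 3.1 in rest and was at 0.85 ± 0.12 in gut, an interaction of 2.25 ± 0.23 (adjusted p = 0.00209), while for its neighbour CG16704 the interaction was 0.38 ± 0.27 and not called. For CG14642, CG31516 and CG14695 the interaction was called too. Obp57a had one of 3.72 ± 0.48 (adjusted p = 0.00841) and was not well above background in Pdm2RB samples of either tissue, so that this value reflects its signal in the controls, 2554 to 3244 in rest and 35596 to 52103 in gut.

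**Figure D4:**
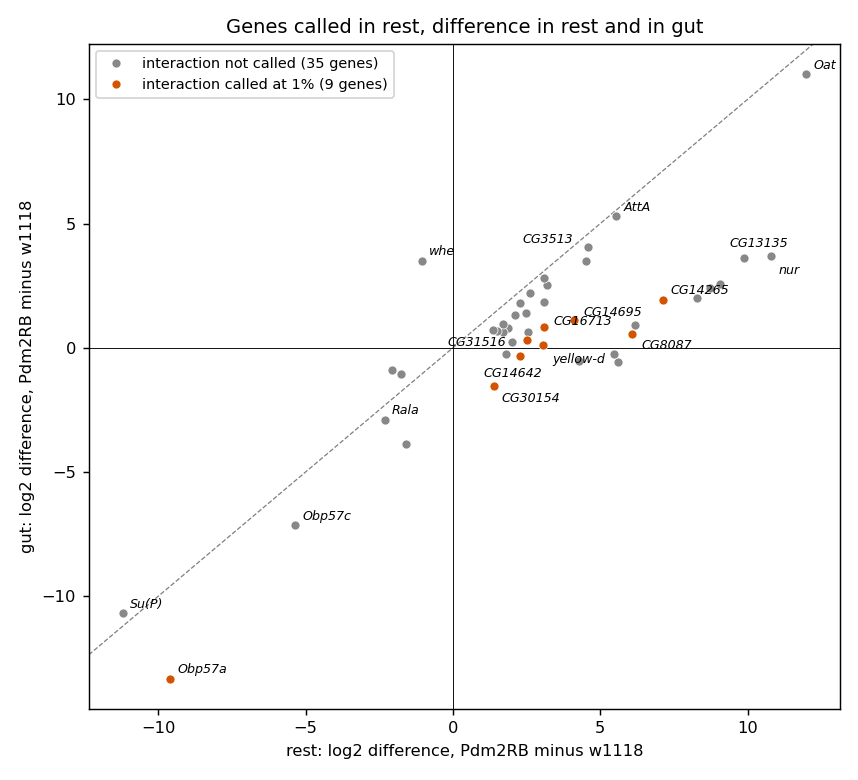
Log2 difference of Pdm2RB minus w1118 in rest (x axis) and in gut (y axis) for the 44 named genes whose brightest probe was called in rest; the dashed line marks equal differences and orange points the 9 genes with a called interaction. Oat, Su(P), AttA and Rala lie near the line, while yellow-d and CG14642 lie near 0 in gut and CG30154 below it.

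Pdm2RB rest was also set against rest of flies overexpressing nub-RB with the same driver (4 arrays), a comparison that uses no w1118 array. It called 162 of 16360 probes (0.99%), 80 higher (0.489%) and 82 lower (0.501%) in Pdm2RB. Leaving out any 1 of the 7 arrays gave 50 to 83 calls. Of the 137 probes called against w1118 that were tested here, 71 lay within 2-fold of nubRB rest and 37 were called different. Oat, wnd and Su(P) were at nearly the same signal in both lines. Oat read 18576, 16115, 16115 and 25827 in nubRB rest, with a log2 difference of -0.29 ± 0.25 between the lines, and wnd 2174, 1993, 1961 and 1928, with 0.23 ± 0.10, neither called. Su(P) read 1.89 to 4.76 in nubRB rest and could not be tested there. CG13135 was far brighter in Pdm2RB rest than in nubRB rest, where it read 29.0, 29.4, 17.8 and 23.6 (log2 difference between the lines 6.24 ± 0.32, adjusted p = 0.000122). It was well above background on all 4 nubRB rest arrays and on no w1118 rest array, where it read 1.81 to 2.05. CG14852, at 421, 250, 281 and 518 in nubRB rest, was higher in Pdm2RB by 3.74 ± 0.34 (adjusted p = 0.00234), CG8087 by 4.09 ± 0.36 and PH4alphaSG1 by 3.62 ± 0.31. lncRNA:CR32368, which rose in Pdm2RB rest from 272, 151 and 199 to 1622, 1619 and 1993, was brighter still in nubRB rest, at 8568, 8191, 7282 and 9475 (-2.26 ± 0.13, adjusted p = 0.000269). None of the 12 antimicrobial peptide genes and none of the 15 bomanin and related genes was called different between the lines. Of these, 11 and 15 had a log2 difference below 0, with medians of -1.04 and -1.31.

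The named genes with the largest called differences between the lines were mostly not called against w1118. Symbols came in part from tables ranked by the nubRB comparison, so genes changed in nubRB may be over-represented among those that can be named. AspRS, an aspartyl-tRNA synthetase, read 6186, 7400 and 7165 in Pdm2RB rest, 8198, 7610 and 6897 in w1118 rest and 46.2, 39.0, 45.2 and 34.4 in nubRB rest. Its log2 difference from w1118 was -0.13 ± 0.13 and that from nubRB 7.40 ± 0.14 (adjusted p = 6.62e-07). CG8768 was at 4.96 ± 0.13 from nubRB and 0.16 ± 0.18 from w1118. mthl8, a methuselah-like receptor, was not well above background on any nubRB rest array and at least 22.9-fold higher in Pdm2RB (adjusted p = 1.99e-05), with a log2 difference from w1118 of 0.47 ± 0.15. Obp46a, another odorant-binding protein gene, read 1053, 1158 and 1767 in Pdm2RB rest, 1.61 to 8.32 in nubRB rest and 8.57, 575 and 398 in w1118 rest, where the spread among controls left its difference of 3.37 ± 1.56 uncalled.

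**Figure D5:**
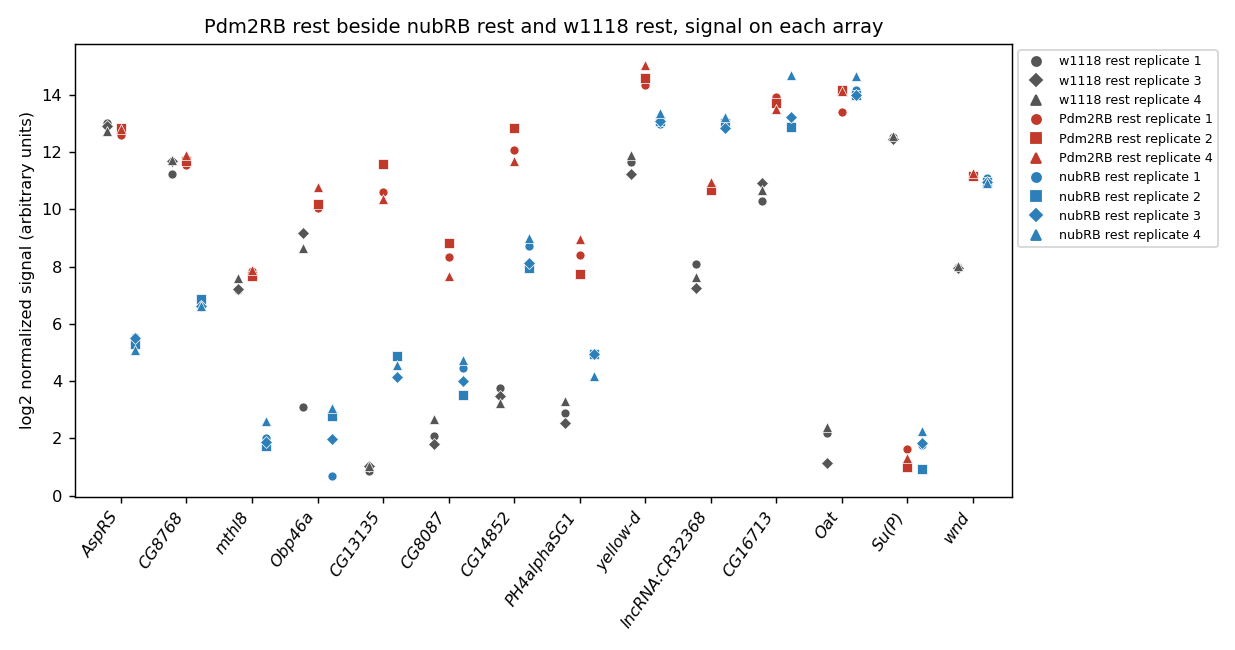
Log2 normalized signal (y axis, arbitrary units) of 14 genes on each array of w1118 rest (3, grey), Pdm2RB rest (3, red) and nubRB rest (4, blue). AspRS, CG8768 and mthl8 are low in nubRB rest alone, and Oat, Su(P) and wnd have like signals in both overexpressing lines. CG13135 and CG8087 are brightest in Pdm2RB rest, with nubRB rest between it and w1118 rest.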

How the data were processed

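RNA from 19 samples was hybridised to 1-colour Agilent arrays (Cy3). The deposited scanner files hold intensities that the authors extracted with Agilent Feature Extraction 10.7.3.1, background-subtracted within the array, and the deposited table holds intensities that the authors quantile-normalized over the 19 arrays in Partek. Here the processed intensities were averaged per probe without outlier spots (47 to 58 left out per array), quantile-normalized over the 19 arrays and taken to log2. Of these values 99.9% lay within 0.01 log2 of the authors' table. Probes with a group mean above 130 in either group compared were tested by limma 3.58.1 (R 4.3.3, lmFit and eBayes, two-sided) with Benjamini-Hochberg adjustment at 1%, in place of the t-test of the study's methods. Standard errors are limma's moderated ones.

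The interaction used the 12 arrays of Pdm2RB and w1118 and the comparison with nubRB 7 arrays. The fits were tested on simulated data. The files give transcript accessions but few symbols: 1427 of the 32162 probes were named, 317 of them through a RefSeq accession. Most others were named through probe or transcript identifiers in the study's supplementary tables. A further 33 and 9 came from immune-gene tables without probe identifiers. For these, the printed fold changes of nubRB over w1118 were matched to ratios of group means. Those fold changes served only to identify probes. Gene order is from RefSeq's annotation, and no coordinates are given, since the array design uses an older build. For a gene with several probes the brightest over the 6 arrays is given.

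Genes were named by rule: the 12 called genes with the highest change and, for the 8 called lower, those next in adjusted p up to 12, the largest called probes without a symbol, the targeted genes, 2 to 4 genes per list and called ones, and the 5 genes with the largest called interaction or difference from nubRB. The comparison, the rule and the gene lists were chosen with earlier results of these data known. Alternatives covered scaling, background correction, the signal threshold, blocks for slide, scan and replicate number, array weights, the methods' t-test, the threshold and leaving out each array. The 6 arrays lay on 5 slides and in 2 scan batches. No sequences were used here.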

Additional observations from a re-analysis of the deposited data

Results flagged for a closer look

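For 9 genes called in rest the difference between Pdm2RB and w1118 was not the same in rest and gut by limma's interaction test (12 arrays, Benjamini-Hochberg at 1%). On the log2 scale, rest minus gut, CG8087 was at 5.54 (adjusted p = 0.00205) and CG14265 at 5.20 (adjusted p = 0.00803). CG14265 was not well above background in w1118 of either tissue and CG8087 in w1118 rest, so these sizes depend on dim signals. Obp57a was at 3.72 (adjusted p = 0.00841), with Pdm2RB near background in each tissue. Its decreases in the 2 tissues are lower limits and were not ranked. yellow-d was at 2.97 (adjusted p = 0.00199), CG14695 at 2.97 (adjusted p = 0.00724) and CG30154 at 2.92 (adjusted p = 0.00199), CG30154 being the one of them with opposite signs and groups apart in the 2 tissues. CG14642 was at 2.58 (adjusted p = 0.00562), CG16713 at 2.25 (adjusted p = 0.00209) and CG31516 at 2.22 (adjusted p = 0.00352).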

How the results depend on the processing

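The 142 calls between Pdm2RB rest and w1118 rest became 95 to 184 under 75th percentile scaling, normexp, quantile normalization of the 6 arrays, the authors' table, other signal filters, slide as a fixed block, a 2-fold minimum or removal of gut-enriched probes. The number was 82 with scan date as a block, 267 in a fit of the 3 genotypes of rest, 314 in a fit of all 6 groups and 340 with slide as a random block. It was 486 at a false discovery rate of 5%, 9 by the methods' t-test with the spread of each probe and 715 with 1 pooled standard deviation, 407 of these lower. Array weights gave 2241, but their estimation stopped before it converged. Leaving out 1 array gave 44 to 166, with 44 without Pdm2RB replicate 2, 57 without w1118 replicate 1 and 52 without w1118 replicate 4.

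Correlations of deviations from the group mean did not settle whether the replicate numbers pair the samples. Between Pdm2RB rest and w1118 rest only numbers 1 and 4 were shared, and same-number samples correlated at -0.11 and -0.0464. Between Pdm2RB rest and nubRB rest same-number samples correlated at 0.425, 0.123 and 0.00525, and samples with different numbers at -0.392 to 0.3. With a replicate block limma called 0 probes in rest (1505 at an unadjusted p under 0.05, against 2891 without the block), 16 for the interaction and 26 against nubRB, where only some numbers were shared between the groups of rest. Of Pdm2RB rest and w1118 rest, only the former held number 2 and only the latter number 3. The block thus left little from which to estimate the spread, and its 0 calls cannot decide on pairing.

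For the interaction the 35 calls became 108 at 5% and 18 to 159 without 1 array, with 18 without w1118 rest replicate 1, 22 without Pdm2RB rest replicate 4, 21 and 23 without Pdm2RB gut replicates 1 and 2, 111 without Pdm2RB rest replicate 1 and 159 without w1118 rest replicate 3. In the comparison with nubRB rest the 162 calls became 105 without a threshold on the signal, 452 in a fit of all 6 groups, 579 at 5% and 50 to 83 without 1 array, whichever it was.

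Of 48 called genes and probes 47 kept their direction under all alternatives and 21 were called without each array in turn. The exception was whe, at 0.326 with slide as a fixed block. None of the other log2 differences that changed sign was called. With slide as a fixed block Drs was at -0.0991, Tep4 at -0.0114 and Mal-A8 at 0.41. With scan date as a block Drs was at -0.35 and Obp99d at -0.0141, and with the replicate block at -1.54 and -0.121. Obp99d was at -0.223 under 75th percentile scaling. Without 1 array Drs ran from -0.813 to 1.16, puc from -0.115 to 0.0225 and Obp99d from -0.229 to 0.332. The cause was not tested. Signal over background limits the dim probes: a fold against a group with no array well above background is a bound, and fitted sizes that involve dim arrays, such as those of Oat and the interaction of CG14265, are uncertain by more than their error.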
